A study of Rattus norvegicus with 10 samples.

Results

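A total of 2225 RNAs on the array, all called long non-coding RNAs (lncRNAs) by the array design, were rat cDNAs that carry a plain GenBank accession as their name, such as AF196267, BC158780 or S66184. They were chosen from the non-control probes by that form of name, 1 or 2 capital letters followed by digits, together with a probe named after the same accession. They made up 23.9% of the 9319 lncRNAs and were part of 24674 RNAs on the array. Each was measured by 1 probe printed as 3 spots, so that 6675 of the 42136 non-control spots of an array belonged to them. No gene name was paired with any of the 2225 accessions in the tables used here, so the cDNAs are called by their accessions and no function is given for them.

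These entries are sequences that different laboratories and projects read from rat cDNA and deposited in a public archive, whereas other lncRNAs of such arrays are rat counterparts of mouse transcripts or models from genome annotation. LncRNAs are long transcripts that are not known to encode a protein, and the well studied ones regulate gene expression in the nucleus or the cytoplasm. The class given to a cDNA by an array design is an annotation, and whether a given accession is truly non-coding, or is a fragment of a coding transcript, was not tested.

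The study asked which lncRNAs of the spinal cord differ once rats have become tolerant to morphine. Male Sprague Dawley rats of 240 to 260 g received intrathecal injections of 10 μg of morphine in 10 μl (morphine tolerance group, MT, rats 1 to 5) or of 10 μl of normal saline (normal saline group, NS, rats 6 to 10), 2 times daily for 7 days. The lumbar enlargement was taken on the next day, 1 hour after the morning injection, and the RNA of each rat was hybridized to 1 one-colour array. The RNA came from whole tissue, in which fewer cells of a type and less RNA per cell cannot be told apart.

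Arrays with the same scan time are called a slide here, an inference from the scan times alone. By it, 4 MT arrays (rats 1, 3, 4 and 5) formed slide 1. Slide 2 held MT rat 2 together with 3 NS arrays (rats 6, 7 and 10). The remaining NS arrays (rats 8 and 9) formed slide 3 and had dimmer spots. Slides 1 and 3 each held 1 group, so for their arrays slide and treatment cannot be told apart. Markers of neurons, oligodendrocytes, astrocytes and microglia were detected on all 10 arrays. Of 6 neutrophil markers, 3 were on the array and 2 of them were detected on all 10, and their summed intensity was 185 to 289 across MT rats and 81.2 to 145 across NS rats, without overlap. Skeletal muscle markers summed to 1250 to 1390 across MT rats and 796 to 1290 across NS rats, and meningeal markers to 4520 to 5520 and 1220 to 6800, with overlap in both. The sums of dorsal root ganglion, Schwann cell and erythrocyte markers overlapped too. Calca, 1 of the 6 markers listed for the ganglion, met the criteria used below for higher RNAs (log2 fold change 0.72). It encodes the precursor of the neuropeptide CGRP. Calca was highest in MT rat 4 (8213) and lowest in NS rat 10 (3025), and so was the motor neuron marker Slc5a7 (5544 and 2811). Calca and Prph gave most of the ganglion sum, and Scn10a, Scn11a and Mrgprd were detected on 8, 6 and 3 arrays. Which cells the Calca RNA came from was not tested. The part of these cells and tissues in the differences below was not tested either.

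A spot counts as detected here when the scanner software marked it as well above its local background, and a cDNA is detected on an array when more than 50% of its spots are. On the MT arrays 82.0%, 81.0%, 85.1%, 80.3% and 80.7% of the cDNA spots were detected in rats 1 to 5. On the NS arrays the share was 78.1%, 76.3%, 62.3%, 55.2% and 78.4% in rats 6 to 10. Every MT array lay above every NS array, and the arrays of NS rats 8 and 9 lay far below the other NS arrays. The mean share in MT rats was 81.8% ± 1.94 (SD, n = 5) and that in NS rats 70.1% ± 10.7 (SD, n = 5), a difference of 11.7 percentage points (exact two-sided permutation test, p = 0.00794, the smallest that 5 against 5 rats allow). Without NS rats 8 and 9, the NS mean was 77.6% ± 1.18 (SD, n = 3) and the difference fell to 4.20 percentage points (exact permutation test, p = 0.0179, the smallest that this design allows). The p of the first test was 0.0556 when MT rat 1 or MT rat 3 was left out, by the same exact permutation test, with differences of 11.7 and 10.9 percentage points. Slide differs between the groups in all of these tests, so their p values do not separate slide from treatment. Within slide 2, where MT rat 2 stands alone for its group, the difference was 3.41 percentage points.

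The same comparison gave 13.1 percentage points for the other lncRNAs and 7.11 for mRNAs (exact permutation tests, both p = 0.00794). Within an array, the cDNA share exceeded that of the other lncRNAs by 4.81 percentage points ± 1.47 (SD, n = 5) for MT rats and by 6.17 ± 1.57 (SD, n = 5) for NS rats, and the 2 excesses differed by -1.36 percentage points (exact permutation test, p = 0.183). The cDNA share lay below that of the mRNAs on all 10 arrays, by 7.23 percentage points ± 1.56 (SD, n = 5) for MT rats and by 11.9 ± 4.22 (SD, n = 5) for NS rats (exact permutation test of the change in this gap, p = 0.0238). Without NS rats 8 and 9 the cDNA share minus the mRNA share was -8.92 ± 0.776 (SD, n = 3) for NS rats, and the change in the gap fell from 4.63 to 1.69 percentage points (exact permutation test, p = 0.143). After quantile normalization, which gives every array the same distribution of intensities, the median log2 intensity of the cDNAs was 5.65 in both groups (exact permutation test, p = 0.849).

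**Figure D1:**
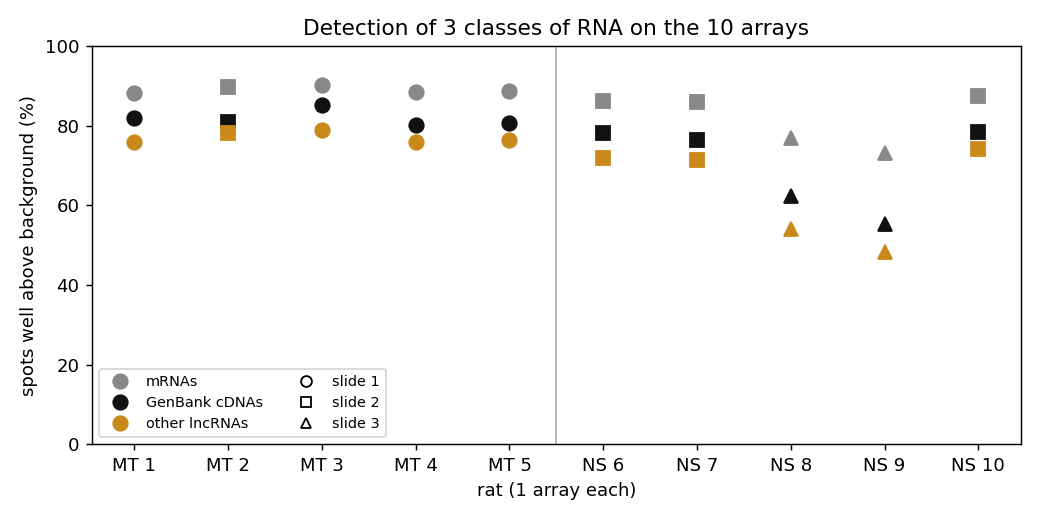
Percent of spots well above background (y axis) on the array of each rat (x axis) for the GenBank cDNAs, the other lncRNAs and the mRNAs, with the slide shown by the symbol. The cDNAs lay between the other classes on every array, and all classes dropped on the 2 arrays of slide 3, where the cDNA share was 62.3% and 55.2%.

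Most of the cDNAs were seen in every rat or in none. A total of 1219 (54.8%) were detected on all 10 arrays and 271 (12.2%) on no array, compared with 45.3% and 17.9% of the other lncRNAs and 72.4% and 6.39% of the mRNA probes. Of the 280 cDNAs detected on 8 arrays, 269 were missed on exactly the 2 arrays of slide 3, and no cDNA was detected on both of those arrays and on none of the other 8. The filter for testing, detection on at least 5 arrays, was passed by 1774 cDNAs and failed by 451. Because detection was more frequent on the MT arrays, a cDNA could pass this filter through the MT group alone.

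A total of 67 cDNAs (3.01%) were detected on at least 4 MT arrays and at most 1 NS array, and none showed the reverse. The same count was not made for the other RNAs. Detection was lower on the NS arrays in every class, most of all on slide 3, so the count is not read as a trait of the cDNAs. Their mean log2 intensity ran from 2.89 to 4.36 in the MT rats and from 1.86 to 3.84 in the NS rats, so all were dim. Of these, 50 passed the filter through the MT arrays, and 4 are among the higher cDNAs described below. In 12 of the 67 the split was complete, with all 5 MT arrays and no NS array. No fold is read from these cDNAs as a set, since NS values that are not well above background are bounds.

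The accession letters, which mark the source and the period of a submission, divided the cDNAs by detection. The 861 BC entries, full-length cDNAs of the Mammalian Gene Collection, were detected on all 10 arrays in 78.3% of cases and on none in 4.76%. The other 2-letter submissions apart from AB, AJ and AM numbered 615, of which 45.4% were detected on all arrays. Of the 458 older 1-letter accessions, 40.8% were detected on all arrays and 18.8% on none. The 291 AB, AJ and AM entries, submitted in Japan and Europe, had the lowest share on all arrays (27.1%) and the highest share on none (25.4%). The share on all arrays was 18.2% in the AJ and 11.1% in the AM entries and 54% in the AB entries. Among the BC, other 2-letter, 1-letter and pooled AB, AJ and AM entries, the BC entries came first on each array. On that of NS rat 9, with the fewest detected spots, 78.4% of the BC entries were detected. The shares there were 45.4% of the other 2-letter, 41.05% of the 1-letter and 27.15% of the AB, AJ and AM entries.

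**Figure D2:**
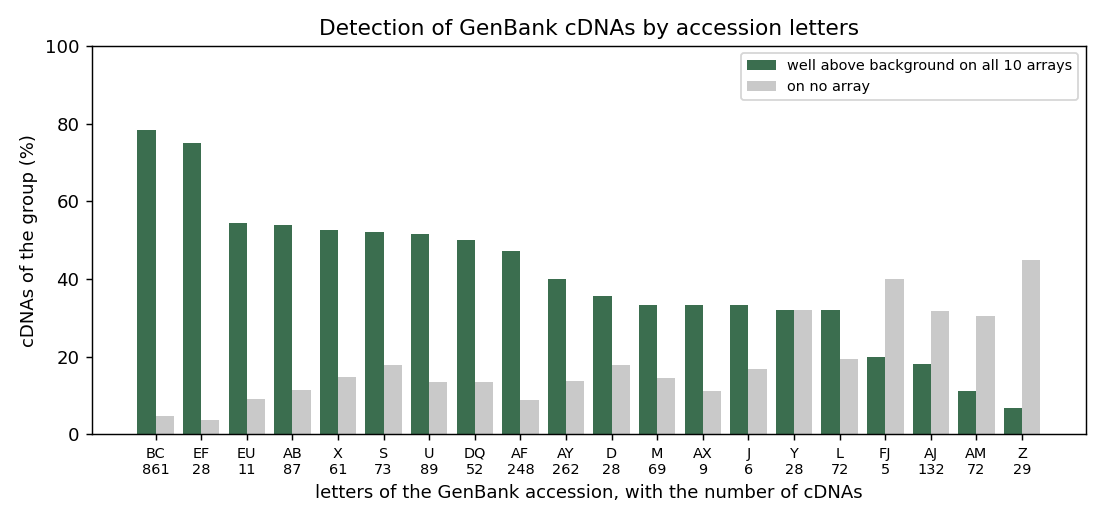
Percent of the GenBank cDNAs (y axis) detected on all 10 arrays and on no array, by the letters of the accession (x axis, with the number of cDNAs under each). BC and EF entries had the highest shares on all arrays, 78.3% and 75%, and Z entries the lowest, 6.9%.

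Detection also differed between runs of accessions with neighbouring numbers, which are often deposited together. Among 73 AJ entries from AJ286145 to AJ286316, 30 were detected on no array and 5 on all 10. The 28 of them that were tested had a median log2 fold change of -0.30 (-0.34 without NS rats 8 and 9), ranging from -0.75 to 0.47, and none passed the criteria. None of the 49 AM entries from AM293738 to AM293854 was detected on all arrays. At the other end, all 14 AY entries from AY724477 to AY724538 were detected on every array, with log2 fold changes from -0.22 to 0.20. Members of a run may share sequence, and their probes were not compared.

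The brightness of a spot depends on its probe as well as on its RNA, so intensities describe the probes and do not show which transcript is more abundant. The mean normalized log2 intensity of the cDNAs had a median of 5.59 (interquartile range 3.56 to 8.91), compared with 4.81 for the other lncRNAs and 8.20 for the mRNA probes. BC entries had a median of 8.38, and the AB, AJ and AM entries one of 3.89. The 5 probes with the highest signal were those of BC166798, BC161988, BC166770, BC158811 and AY035551. BC166798 measured 17.11, 17.01, 17.10, 17.10 and 17.01 in MT rats 1 to 5 and 16.96, 17.04, 16.90, 16.98 and 17.04 in NS rats 6 to 10. The groups overlapped, and its log2 fold change was 0.08 (SE 0.06, adjusted p = 0.514 by limma). The log2 fold changes of the other 4 lay between -0.11 and -0.01, and none passed the test. The probe of BC089066, with the lowest signal among those detected on all 10 arrays, ranged from 3.92 to 4.56 in the MT rats and from 4.05 to 5.23 in the NS rats. Among the 271 cDNAs detected on no array, Y08883, AM293815, AY387089, AY325173 and J00773 are examples, and no level or fold is given for them.

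The 3 spots of a cDNA on an array differed with a median SD of 0.114 on the log2 scale, and the rats of a group with a median SD of 0.226. The SD between rats was the larger in 71.59% of the tested cDNAs. For the 1219 cDNAs detected on all arrays the SD between rats was 0.176, and for the other tested cDNAs it was 0.374. The SD of the spots was 0.0785 in the former and 0.422 in the latter, so a given fold change carries less error in the former.

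The MT and NS groups were compared by limma over all 20284 RNAs with a P value, with Benjamini-Hochberg adjustment over all of them. Under the study's criteria, taken here as a fold of more than 1.5 on the linear scale and P below 0.05 before adjustment, 33 of the 1774 tested cDNAs (1.86%) were higher in the MT group, where 1.74% of all RNAs tested were. A total of 18 cDNAs (1.01%) were lower, where 0.996% of all RNAs were. Both shares were close to those of the whole array. After adjustment 1 cDNA, BC079474, passed 0.05 (0.0564%), where 0.197% of all RNAs did. A total of 284 cDNAs (16.0%) had an unadjusted P below 0.05, and so did 16.4% of all RNAs. Of the 33 higher cDNAs, 1 was detected on no NS array and 3 on 1 NS array, so that most of their NS values were not well above background. The adjusted p of the 33 higher cDNAs ran from 0.0546 to 0.302, and that of the 18 lower cDNAs from 0.0451 to 0.280. The 0.0546 was that of BC158780, detected on 5 MT arrays and 1 NS array. It passed the filter through the MT arrays, so nothing is read from this lowest value.

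These counts moved with single rats and with the scaling. The total of 51 became 33 without NS rat 9, 82 without NS rat 7 and 78 without NS rat 10. Scaling each array by its 75th percentile gave 77 higher and 9 lower cDNAs instead of 33 and 18, and normexp background correction gave 9 and 3. The normexp setting adds an offset of 50 to every intensity, which by itself shrinks the folds of dim cDNAs. Higher and lower cDNAs were about as many with no filter (40 higher and 39 lower), with detection on all 10 arrays (14 and 13), with the slide as a fixed block (13 and 15) or a random one (12 and 12), and without MT rat 1 (21 and 20) or MT rat 4 (23 and 21). Without MT rat 3 the lower ones were more numerous (20 and 29).

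The fold changes of the class were centred near 0 after quantile normalization, which by itself holds the centre over all RNAs near 0. The median log2 fold change was 0.01 in the cDNAs, 0.04 in the other lncRNAs and -0.02 in the mRNAs. With scaling by the 75th percentile, it was 0.14 in the cDNAs and 0.07 in all RNAs. The central 90% of the cDNAs lay between -0.41 and 0.49. The groups did not overlap, with every MT rat above every NS rat, in 40 cDNAs (2.25%), where 2.35% of all RNAs showed this. Every MT rat was below every NS rat in 63 cDNAs (3.55%), where 3.29% of all RNAs did. Of the cDNAs past the criteria, 11 of the 33 higher and 10 of the 18 lower were separated in this way. The share among all RNAs past the criteria was not taken, so these counts are not read as a trait of the cDNAs. The fold limit fell between S77494 and BC059119, just inside at 1.5003 and 1.502, and AF239914 and AJ005396, just outside at 1.497 and 1.495. The largest differences of all missed the P limit. S69385 had a log2 fold change of 1.53 (limma, unadjusted P = 0.0620), and U65217 one of -1.49 (limma, unadjusted P = 0.423).

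**Figure D3:**
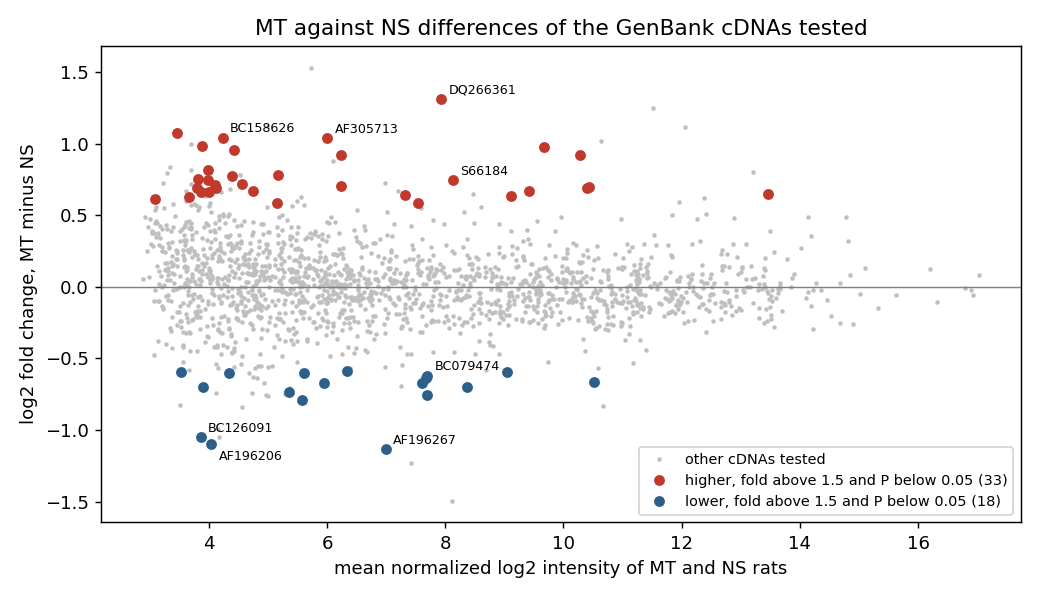
Log2 fold change, MT minus NS (y axis), against the mean normalized log2 intensity (x axis) for the 1774 GenBank cDNAs tested, with the 33 higher and 18 lower cDNAs past the criteria in colour. The spread widens toward dim cDNAs, and DQ266361 is the higher and AF196267 the lower cDNA of largest fold that met the criteria.

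DQ266361 led the higher cDNAs that met the criteria, by fold, and the study had selected it on these arrays for RT-qPCR. Its log2 intensity was 8.72, 8.75, 8.05, 9.17 and 8.27 in MT rats 1 to 5 and 7.63, 7.24, 7.59, 7.23 and 6.70 in NS rats 6 to 10. Every MT rat was above every NS rat, and NS rats 8 and 9 lay within the range of the other NS rats. The log2 fold change was 1.31 (SE 0.24, adjusted p = 0.0639 by limma), a fold of 2.48. Its value was 1.40 without NS rats 8 and 9, and a block on slide gave 1.56.

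AF305713 was higher in the MT rats as well. It measured 6.53, 6.52, 6.19, 6.78 and 6.58 in MT rats 1 to 5 and 5.76, 5.18, 5.98, 5.59 and 4.91 in NS rats 6 to 10. The groups did not overlap, and the log2 fold change was 1.04 (SE 0.20, adjusted p = 0.0757 by limma). The block on slide gave 1.23 and the fit without NS rats 8 and 9 gave 1.24. With normexp, where the offset shrinks folds, it was 0.52, below the fold limit.

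AF347030 measured between 7.43 and 7.85 in the MT rats and between 6.63 and 7.32 in the NS rats, again without overlap. Here NS rats 8 and 9, at 7.12 and 7.32, were nearer to the MT rats than NS rats 6 and 7, and the log2 fold change rose from 0.64 to 0.79 without them. S66184, the other higher cDNA selected for RT-qPCR, measured 8.71, 8.13, 9.19, 8.21 and 8.27 in MT rats 1 to 5 and 7.98, 7.94, 8.11, 7.75 and 6.99 in NS rats 6 to 10. The groups were separated only narrowly, by 8.13 in MT rat 2 against 8.11 in NS rat 8. The log2 fold change was 0.75 (SE 0.26, adjusted p = 0.210 by limma) and 0.49 once slide was blocked, and its fold fell below 1.5 without MT rat 3 or without NS rat 10 (log2 0.58 and 0.56).

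BC086602 and BC087721 were also separated, with log2 fold changes of 0.65 and 0.70. BC086602 measured 13.50 to 14.26 across MT rats and 12.78 to 13.31 across NS rats, and BC087721 measured 10.46 to 11.33 and 9.81 to 10.32. Every MT rat was above every NS rat in both. With the slide as a block their values were 0.48 and 0.21.

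AY539894, AY539952, BC107469, BC158780, AB013453 and U84743 were dim. The spots on an array differed with an SD of 1.42 in AY539894, against 0.28 between rats. This SD of the spots was 1.19 in AY539952, 0.86 in BC158780, 0.94 in U84743 and 0.64 in AB013453, above that between rats in each. In BC107469 it was 0.31, against 0.33 between rats. AY539894, AY539952, BC107469, AB013453 and U84743 were each detected on 5 MT but 3 NS arrays. Some of their NS values were therefore not well above background. AY539894 measured 4.80, 5.56, 4.61, 4.84 and 4.76 in MT rats 1 to 5 and 4.01, 4.09, 3.70, 4.00 and 3.98 in NS rats 6 to 10. MT rat 2 was the highest of its group, and the log2 fold change was 0.96 (SE 0.17, adjusted p = 0.0600 by limma). The value became 1.54 within slide 2, which compares MT rat 2 with NS rats 6, 7 and 10. It was 0.67 with outlier spots kept and 0.41 in the deposited table. AY539952, from the same run of 30 accessions, had a log2 fold change of 0.99 with overlapping groups, and 0.42 without NS rats 8 and 9. BC107469 was separated at 4.45 to 5.44 across MT rats and 4.12 to 4.32 across NS rats. BC158780, at 3.75 to 4.38 and 2.46 to 3.33, was detected on 5 MT arrays but 1 NS array, so that it passed the filter through the MT arrays and most of its NS values were not well above background. Its log2 fold change of 1.07 was 0.65 under the block, 0.70 in the deposited table and 0.16 with normexp. In AB013453 (0.66) and U84743 (0.75) the separation was narrow, and the lowest NS value came from NS rat 9, at 2.81 and 2.05. Without NS rats 8 and 9 their values were 0.34 and 0.44. In all 6 of these dim cDNAs normexp brought the log2 fold change to between 0.086 and 0.21, below the fold limit. The normexp offset of 50 shrinks the folds of such dim cDNAs in advance, so nothing is read from this fall.

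In other higher cDNAs NS rats 8 and 9 were low. DQ223059 measured 10.80, 10.36, 10.95, 10.84 and 10.74 in MT rats 1 to 5 and 10.24, 10.33, 8.72, 9.15 and 10.63 in NS rats 6 to 10. Only NS rats 8 and 9 were clearly low, and the log2 fold change of 0.92 (SE 0.35, adjusted p = 0.245 by limma) was 0.34 without them and -0.04 with the slide as a block. X89817 had 8.13 and 8.33 in those rats against 9.70 to 9.91 in the other NS rats, and its value of 0.98 became 0.35 without them. MT rat 2, at 10.41, was above NS rats 6, 7 and 10 of its slide, and the value was 0.60 within that slide. BC088211 had 4.65 and 4.84 in those rats against 6.33 to 6.60 in the other NS rats, and its value of 0.92 became 0.24. It was detected on 5 MT but 3 NS arrays, so some of its NS values were not well above background.

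BC158626 showed the opposite arrangement. It measured 5.12, 3.47, 5.05, 5.08 and 5.06 in MT rats 1 to 5 and 3.12, 3.75, 3.84, 4.32 and 3.53 in NS rats 6 to 10. Its spots on an array differed with an SD of 1.415, against 0.597 between rats. It was detected on 5 MT but 2 NS arrays, so most of its NS values were not well above background. The 4 MT rats of slide 1 were high and MT rat 2 was at the level of the NS rats. The log2 fold change was 1.04 (SE 0.34, adjusted p = 0.195 by limma), and -0.0010 with the slide as a block. BC100263 and M81783 followed the same pattern, with MT rat 2 at 3.60 and 3.31 and the other MT rats from 4.36 to 4.71 and from 4.09 to 4.24. Each was detected on 1 NS array, so that they passed the filter mainly through the MT arrays. Most of their NS values were not well above background, which leaves their folds uncertain. Their log2 fold changes of 0.74 and 0.63 were -0.11 and -0.09 with the block. AF079843 (0.82) had overlapping groups and a value of 0.53 without NS rats 8 and 9, and its spots on an array differed with an SD of 1.01. It was likewise detected on 5 MT but 2 NS arrays, which leaves its fold uncertain. AY940046 met the criteria too, but it was detected on all 5 MT arrays and on no NS array with overlapping values, so no fold is given for it, and its direction turned in the deposited table. The other 13 had folds from 1.5003 to 1.72.

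AF196267, which the study also selected for RT-qPCR, had the largest fold among the lower cDNAs. It measured 6.27, 6.62, 5.97, 6.54 and 6.72 in MT rats 1 to 5 and 7.91, 7.92, 8.07, 7.64 and 6.26 in NS rats 6 to 10. NS rat 10 lay inside the MT range and the other 4 NS rats lay above it. The log2 fold change was -1.14 (SE 0.33, adjusted p = 0.158 by limma), or -0.75 with the slide as a block, where it no longer met the criteria (limma, unadjusted P = 0.260). AF196206, in the same run of 9 accessions, measured 3.26 to 3.89 in the MT rats and 4.57, 4.57, 5.35, 5.03 and 3.43 in NS rats 6 to 10. Again NS rat 10 was the NS rat within the MT range, and the log2 fold change was -1.10 (SE 0.31, adjusted p = 0.158 by limma). It was -0.70 without NS rats 8 and 9, and -0.93 with the block, which also took it out of the criteria (limma, unadjusted P = 0.0658). With normexp, where the offset shrinks the folds of dim cDNAs, it was -0.26.

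BC079474 was the cDNA past an adjusted p of 0.05. It measured 7.35, 7.48, 7.25, 7.59 and 7.25 in MT rats 1 to 5 and 7.96, 7.81, 7.99, 8.06 and 8.19 in NS rats 6 to 10. All 5 MT rats were below all 5 NS rats with a small spread in both groups (SD 0.15 and 0.14, n = 5 each). The log2 fold change was -0.62 (SE 0.10, adjusted p = 0.0451 by limma), a fold of 1.54. The adjusted p ran from 0.0211 to 1.00 over the alternative settings, and leaving out a single rat brought it above 0.05 for each rat other than MT rat 2, with values from 0.0523 to 0.184. Its value was -0.60 without NS rats 8 and 9 and -0.51 once slide was blocked.

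Of the other separated lower cDNAs, BC097960 measured 8.20, 7.76, 8.45, 7.94 and 7.72 in MT rats 1 to 5 and 9.07, 8.48, 8.85, 8.59 and 8.57 in NS rats 6 to 10. MT rat 3 came close to NS rat 7 without overlap, and the log2 fold change was -0.70 (SE 0.16, adjusted p = 0.114 by limma) and, with a block on slide, -0.94. BC158785, BC169026, EF088428, AB012662 and BC061963 were separated too, with log2 fold changes of -0.79, -0.75, -0.73, -0.70 and -0.67. With the block, BC158785, EF088428 and BC061963 still met the criteria (-0.86, -0.69 and -0.69), and BC169026 and AB012662 did not (-0.47 and -0.54). AB012662 was dim, at 3.47 to 3.63 across MT rats and 3.92 to 4.48 across NS rats. It was detected on 5 MT but 3 NS arrays, so some of its NS values were not well above background. Its value was -0.24 with scaling by the 75th percentile. Normexp, with its offset, brought all 5 below the fold limit, to between -0.57 and -0.18. BC158785 was highest in NS rats 8 and 9, at 6.41 and 6.37, against 5.50 to 5.94 in the other NS rats, and its value was -0.51 without them. BC086373 (-0.64) and BC098798 (-0.60) were separated with smaller folds, and the former no longer met the criteria with the block (-0.42) nor the latter without NS rats 8 and 9 (-0.45).

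BC126091 was dim, at 3.48, 3.72, 2.34, 3.72 and 3.44 in MT rats 1 to 5 and 3.78, 3.91, 4.90, 5.09 and 4.28 in NS rats 6 to 10. The groups did not overlap, but MT rat 3 was lowest and NS rats 8 and 9 highest, and the log2 fold change of -1.05 (SE 0.33, adjusted p = 0.183 by limma) was -0.26 with the slide as a block. DQ230327 had a value of -0.67 with overlapping groups. The other 5 lower cDNAs had folds from 1.51 to 1.59.

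**Figure D4:**
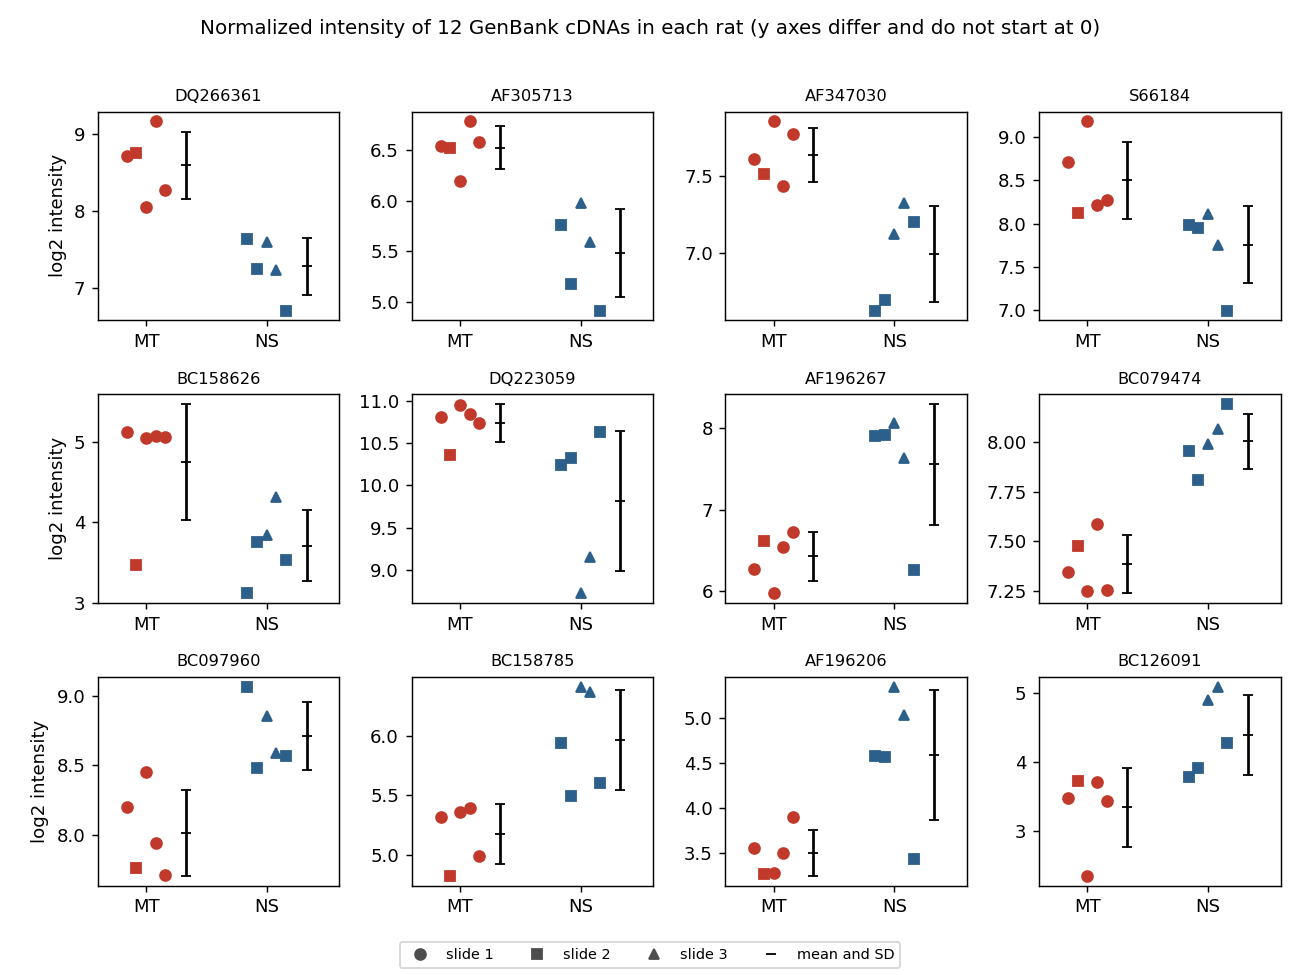
Normalized log2 intensity (y axis, a scale of its own in each panel) of 12 GenBank cDNAs in the 5 MT and 5 NS rats (x axis), with 1 point per rat, the slide as the symbol and the mean and SD beside the points. DQ266361, AF305713, BC079474 and BC097960 were separated between the groups, MT rat 2 was apart from its group at 3.47 in BC158626, and NS rats 8 and 9 were apart at 8.72 and 9.15 in DQ223059.

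With the slide as a fixed block, the group difference comes from MT rat 2 against NS rats 6, 7 and 10. Of the 33 higher cDNAs, 26 kept their sign, 11 kept a fold above 1.5 and 7 met both criteria. All 18 lower cDNAs kept their sign, 8 kept that fold and 5 met both criteria. Whether the 2 directions differ in this was not tested. The cDNAs were called from values that include these same arrays, which favours keeping the sign. The same counts were not taken for all RNAs past the criteria, so they are not read as a trait of the cDNAs. Over all cDNAs tested, the block called 28 in either direction (1.58%), where 1.66% of all RNAs were called.

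Without NS rats 8 and 9, 28 cDNAs were higher (1.58%, where 1.88% of all RNAs were) and 18 lower (1.01%, where 1.68% of all RNAs were). Of the 33 and 18 cDNAs called with all rats, 13 and 8 were called again. NS rats 8 and 9 were both below the other 3 NS rats in 15 of the 33 higher cDNAs, and both above them in 7 of the 18 lower cDNAs. These cDNAs were called from the same values, and low values in NS rats 8 and 9 favour a higher call. Their counts are therefore not compared with the shares over all tested cDNAs. Over all tested cDNAs they were both below in 24.6% and both above in 37.5%, close to the 25% and 38.2% of all RNAs.

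**Figure D5:**
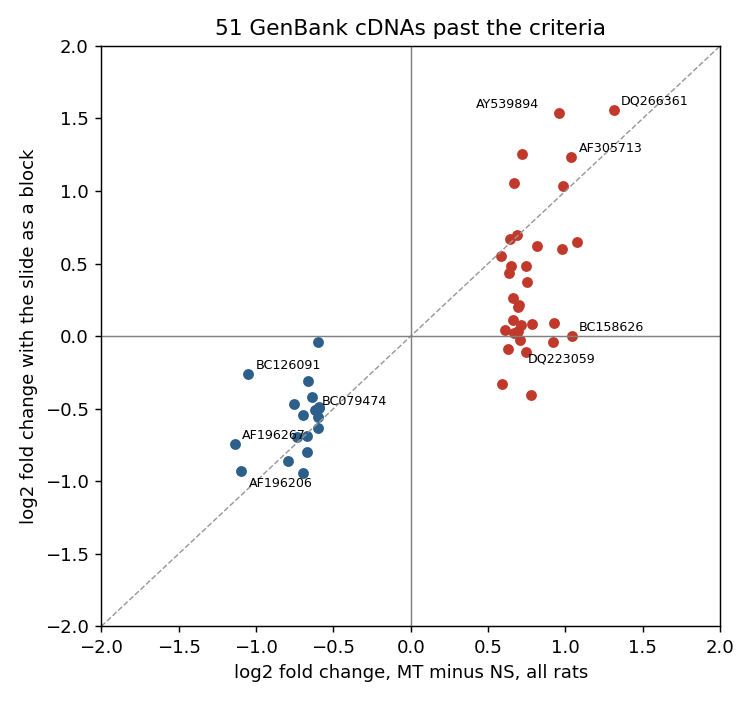
Log2 fold change with the slide as a block (y axis) against the log2 fold change over all rats (x axis), MT minus NS, for the 51 GenBank cDNAs past the criteria, with the dashed line at equality. The 18 lower cDNAs stay below 0 on both axes, and 7 of the 33 higher cDNAs fall below 0 with the block. The cDNAs were called over all rats, which include those that set the block value.

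By accession letters, the BC entries gave 14 higher and 11 lower cDNAs, the other 2-letter entries 9 and 6, the 1-letter entries 8 and none, and the AB, AJ and AM entries 2 and 1. The share past the criteria ran from 1.71% of the tested AB, AJ and AM entries to 3.15% of the BC entries, around the 2.87% of all tested cDNAs and the 2.74% of all RNAs. In 6 runs of neighbouring accessions, of 9 to 75 entries, 2 or more cDNAs passed the criteria, and nothing is read from this beyond the count. Both moved the same way in the run of AF196206 and AF196267 and in that of AY539894 and AY539952. In the other 4 runs, all of BC entries, cDNAs moved both ways, and the run of 71 with BC158626 and BC158780 higher held BC158772 and BC158785 lower.

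The RNAs whose pattern over the 10 arrays was most like that of a cDNA were sought over all RNAs tested, by Pearson r on the log2 intensities. These correlations describe 10 arrays that share the group difference, the slides and the normalization. DQ266361 was most like the mRNAs of Mrc1, a mannose receptor of macrophages (r = 0.994), of Sbno2 (r = 0.984) and of the chemokine receptor Ccr1 (r = 0.979), whose log2 fold changes were 0.63, 0.73 and 1.37. AF305713 was most like Gemin6 (r = 0.962), Sbno2 and Mrc1 (both r = 0.959).

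S66184 was most like another of the cDNAs, S77494 (r = 0.982), and then like Sectm1b (r = 0.979) and Upp1 (r = 0.973). AF196267 was most like Lpar6 (r = 0.967), the signalling protein Wnt4 (r = 0.963) and Wtap (r = 0.962), which had log2 fold changes of -0.39, -0.60 and -0.27. BC079474 was most like Zan (r = 0.977), the lncRNA MRBC052489 (r = 0.968) and Acsl1 (r = 0.967), an enzyme that activates fatty acids. BC158626, the cDNA high on slide 1, was most like Krtap10l1 (r = 0.993), Vom1r6 (r = 0.982) and Crip1 (r = 0.978).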

How the data were processed

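RNA of the lumbar enlargement of 5 MT and 5 NS rats was hybridized to 1 Arraystar rat lncRNA array per rat. The authors read the images with Agilent Feature Extraction 11.0.1.1 and deposited, per array, the background-subtracted intensity of each spot on a linear scale with quality flags. They also deposited a table of log2 intensities, quantile normalized in GeneSpring per the methods of the study, which served as an alternative.

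A floor of 1, below the lowest intensity of 1.71, was applied before intensities were converted to log2 and quantile normalized over the non-control spots (limma 3.58.1 in R 4.3.3). Outlier spots were dropped, which left 18 values of a cDNA on an array with no spot, and 10 tested cDNAs entered the fit with a missing value. Probes with more than 50% of their spots well above background on at least 5 arrays were tested, 20286 RNAs in all, by linear models with empirical Bayes moderation, and P values were adjusted over all RNAs. For single values the test was an exact two-sided permutation of the 10 rats. A run of accessions has gaps of at most 100. Plots used matplotlib 3.10.9 (Python 3.11.15).

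The cDNAs, lists and tests were chosen with earlier results of these data known. The cDNAs named were the one past adjusted p 0.05, up to 10 higher and 10 lower with the largest fold, those past the criteria without overlap, the 3 selected for RT-qPCR, those with the highest and lowest probe signal, and the 67 detected in mostly 1 group, which are given by count, with values for the 4 of them past the criteria. S69385, U65217, BC158772 and those next to the fold limit fall outside this rule and were named after their values were seen. Because the files hold no mean signal before background subtraction, the normexp alternative used the median signal and the median local background. It added an offset of 50. The labels do not say that arrays of the same number are paired, and the groups share no number. The number of arrays limits the precision, and no sample was left out. The RT-qPCR values were not analysed here. For DQ266361, S66184 and AF196267 the paper reports a significant RT-qPCR difference with the same trend as on the arrays.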

Additional observations from a re-analysis of the deposited data

Results flagged for a closer look

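In 80 groups of 5 rats, formed from the cDNAs past the criteria that are named above, those with the highest and lowest probe signal and the detected share, 10 held a rat that stood far from its 4 companions, where chance gives about 5%. MT rat 2 was the rat apart in 5 of them. Its log2 intensity was 3.47 in BC158626, 3.02 in AY940046 and 3.31 in M81783, below the other MT rats, and 5.00 in AY539952 and 5.56 in AY539894, above them. It was the MT rat on slide 2, and its part in these values was not tested. NS rat 10 was apart in AF196267 at 6.26, below the other NS rats, and in M81783 at 3.74, above them. NS rat 8 was low in AY539894 at 3.70, NS rat 9 was low in U84743 at 2.05, and MT rat 3 was low in BC126091 at 2.34.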

How the results depend on the processing

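The 51 cDNAs past the criteria became 86 with scaling by the 75th percentile, 12 with normexp, 79 with no filter, 27 with detection on all 10 arrays, 28 with the slide as a fixed block, 24 with it as a random block (correlation 0.464), 31 within slide 2, and 0 when the limit of 1.5 was read as a log2 fold change. Leaving out 1 rat gave 33 to 82. The count past adjusted p 0.05, 1 with all rats, was 2 with the 75th percentile, 8 with normexp, 4 with detection on all 10 arrays, 4 with the methods' t-test followed by adjustment, 3 with a variance trend and 10 with array weights. By limma it was 0 with no filter, either block, within slide 2 or without NS rats 8 and 9, where 321, 70, 104, 71 and 324 cDNAs had an unadjusted P below 0.05 (fixed block before random), and 0 to 9 when 1 rat was left out. The median log2 fold change moved to 0.14 with the 75th percentile (all RNAs 0.07) and lay between -0.0077 and 0.017 without single rats. The detected share differed by 3.41 percentage points within slide 2 or with the slide as a block, and by 8.04 to 13.8 without single rats. Of 33 named cDNAs, DQ266361 and BC097960 met the criteria under all alternatives in which they were fitted. Of the same 33, the criteria were met by 8 with normexp, 12 with the fixed block and 19 without NS rats 8 and 9. The normexp offset of 50 by itself lowers the folds of dim cDNAs. Log2 fold changes turned in 5: BC158626 (-0.0010), DQ223059 (-0.044), BC100263 (-0.11) and M81783 (-0.091) with the fixed block and within slide 2, and AY940046 (-0.037), detected on no NS array, in the deposited table. The causes were not tested. Signal over background limits the dim cDNAs, which had the larger spread between rats. No paired analysis was possible because the groups share no replicate number.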
